A study of Homo sapiens with 6 samples.

Results

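Ribosomal protein pseudogenes are genomic copies of the genes that encode the proteins of the ribosome. They were followed here in Huh7 cells, an established human hepatoma cell line. A row of the gene table was taken as a member when its name was a ribosomal protein name followed by P and a number, and when its read counts summed to at least 60 over all 6 libraries. Of 50868 rows, 884 carried such a name. 536 of these had 0 counts in every library and 270 had 1 to 59 counts, which left 78 members. The parent of each member is the gene before the P in its name, so that RPS2P5 is set beside RPS2. The 78 members belong to 34 parents, with 56 members named for 23 large subunit proteins (RPL) and 22 for 11 small subunit proteins (RPS). The members were chosen by their summed counts over both groups, not by the difference between them, so the counts of the members are the basis of the choice and not a finding. Just inside it were RPL12P38, RPL23AP24 and RPS2P32 with 67 counts each, and just outside it RPS18P9 and RPS3AP25 with 59 each.

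The study transfected Huh7 cells by Lipofectamine with a plasmid that overexpresses hsa_circ_0098181, a circular RNA from exons of SOX5, or with a control plasmid. Total RNA was taken 48 h later, and each group had 3 libraries. Both groups therefore share the cell line, the medium and the transfection, and no untransfected cells were analysed here. Nothing in the labels says whether the libraries of a group came from separate cultures, so p-values measure only the spread between these libraries.

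Ribosomal protein genes are among the most strongly transcribed genes of dividing cells, and each of their proteins has a fixed place in the small or the large subunit. Their abundant spliced messenger RNAs have often been copied back into the genome by reverse transcription, which leaves processed pseudogenes: copies without introns, usually without the parent's promoter. A recent copy differs from the spliced parent at few bases, so a short read from it can match the parent and other copies equally well.

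The likeness of the most counted members to their parents is shown first, because it bears on every value that follows. Sequences and positions are from GENCODE 29 (GRCh38), in which all 78 members were found by gene ID and 77 had the same coordinates as in the table. The first set is a stretch of 30 bases centred on the parent's exon junction nearest the middle of its transcript, shown for 4 of the 5 most counted members. Each is written 5′ to 3′ along the transcript, and capitals mark bases of a pseudogene that differ from the parent. The genes are RPS2 (chr16:1962052-1964860, minus strand) and RPS2P5 (chr12:118246084-118246962, plus strand), RPL13A (chr19:49487554-49492308, plus strand) and RPL13AP5 (chr10:96750288-96750899, plus strand), RPL23A (chr17:28719393-28724359, plus strand) and RPL23AP42 (chr3:161429127-161429597, minus strand), and RPL14 (chr3:40457292-40468587, plus strand) and RPL14P1 (chr12:62965325-62965969, plus strand).
RPS2: cgcaccaggttcaaggcatttgttgctatc
RPS2P5: cgcaccaggttcaaggcGtttgttgctatc
RPL13A: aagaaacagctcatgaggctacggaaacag
RPL13AP5: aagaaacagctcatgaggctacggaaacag
RPL23A: tcccaggagaaacaagcttgaccactatgc
RPL23AP42: tcccaggagaaacaagcttgaccactatgc
RPL14: gaagccagagaaaggaaagccaagatgaca
RPL14P1: gaagccagagaaaggaaagccaagatgaca

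3 of these 4 pairs were identical across the junction, although the parent's bases lie in separate exons of its gene and the pseudogene's lie side by side. In RPL13AP5 all 7 junction stretches that could be compared were identical to RPL13A. Among the 78 members, 58 had at least 1 such stretch identical to the parent and 4 had all of them.

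The second set shows how little parts the members with the most counts relative to their parents from those parents. RPS28P7 (chr11:82689559-82689768, plus strand) was 100% identical to RPS28 (chr19:8321158-8323340, plus strand) over its whole length of 210 bases. RPL21P75 (chr7:20002765-20003247, plus strand) and RPL9P9 (chr15:82372196-82372912, minus strand) each differed from the aligned parent at 1 base, and RPL23AP42 at 2. The stretches of 30 bases below surround that base, or the first of the 2 with room around it, and capitals mark it in both copies.
RPL21: ctaaagcgccagcctGctccacccagagaa
RPL21P75: ctaaagcgccagcctActccacccagagaa
RPL9: cttgggtgaaaaataTatccgcagggttcg
RPL9P9: cttgggtgaaaaataCatccgcagggttcg
RPL23A: ggctgtgaagaagctGtatgacattgatgt
RPL23AP42: ggctgtgaagaagctCtatgacattgatgt

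A read of these copies that does not cover such a base matches both. How reads with several matches were counted is not given in the sources used here, so the counts of single members and parents are uncertain, and the values below describe rows of the table.

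Likeness to the parent went with the counts across the whole set of names. Median identity with the spliced parent, over the aligned part, was 86.5% for the 536 rows at 0 counts, 91.4% for 268 rows with 1 to 59 counts and 97.1% for the 78 members. A second measure was the share of a pseudogene's stretches of 31 bases that also occur in any protein-coding transcript of the parent. Its medians were 1.28%, 7.32% and 42.9% in the same order. Of 23 rows with an identity of at least 99%, 17 were members, and of 502 rows under 90%, 9 were. The median length was 468, 491 and 614 bases, so the members were also longer.

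**Figure D1:**
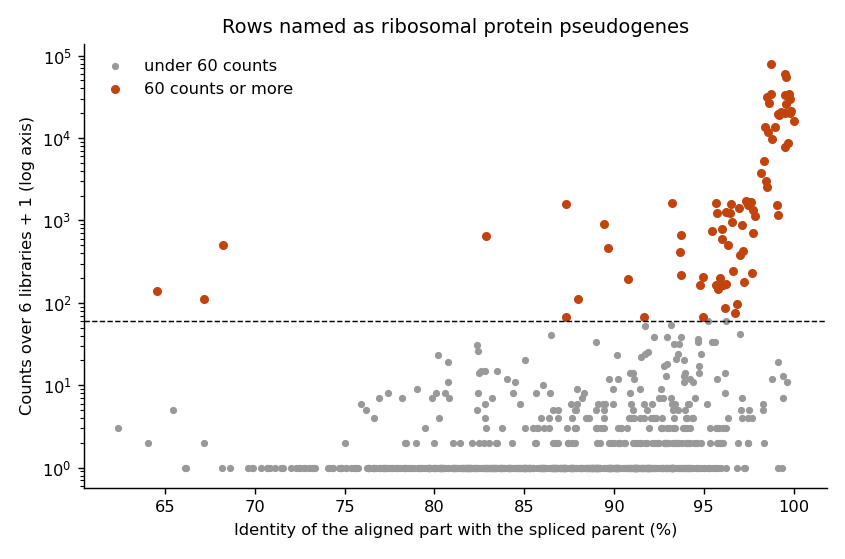
Counts over the 6 libraries plus 1, on a log axis, against identity with the spliced parent in percent, for 882 rows named as ribosomal protein pseudogenes. Each point is a row and the dashed line is the minimum of 60 counts; 60 of the 78 members lie at an identity of 95% or more, and the highest counts lie above 98%.

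By annotation, 69 members are processed pseudogenes, 7 transcribed processed pseudogenes and 2 transcribed unprocessed pseudogenes, and 73 have 1 exon. 36 lie outside other genes, 33 in an intron of another gene and 9 over an exon of another gene. For members inside other genes, reads of the host transcript can be counted to the pseudogene, and the handling of strand is not given in the sources used here.

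4 members were nearer in sequence to another ribosomal protein gene than to the gene in their name. RPL7P22, RPL7P57 and RPL7P21 shared 0% of their 31-base stretches with RPL7, and over their whole length they were 96.4%, 95.4% and 97.5% identical to RPL7L1, a gene related to RPL7. RPL26P30 shared 0% with RPL26 and was 99.2% identical to RPL26L1, the paralogue of RPL26, over 55.1% of its length. For these 4 the parent in the name is no near-identical copy (506, 139, 110 and 641 counts). They were kept with the named parent in the family values below, as the rule has it. Without them, chosen after the data were seen, the members' share of the RPL7 family was 88.0% to 88.8% over the 6 libraries and that of the RPL26 family 10.2% to 12.6%. 11 members in all shared under 10% of their stretches with the named parent, among them RPL32P3 with 1566 counts and RPL23AP82 with 892.

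Counts in the members were concentrated. The 78 members held 659662 counts, and the 10 most counted held 62.0% of them. RPS2P5, a copy of the gene for the small subunit protein uS5, led with 78825 counts against 58743 for RPS2. RPL13AP5 had 59747 counts against 41388 for RPL13A, which encodes the large subunit protein uL13. RPL23AP42 had 54824 against 8045 for RPL23A, whose protein sits at the exit of the peptide tunnel. RPL14P1 had 34662 against 21554 for RPL14. At the other end 21 members had under 300 counts.

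13 members had more counts than their parents, and the same 13 led their parents per length. RPS28P7 stood furthest from its parent, with 16005 counts against 320 for RPS28, 50.02 times as many. On a scale of CPM (counts scaled to library size) per kilobase, its mean level was 1009 against 20.3 for RPS28, whose coding length was used for the parent. RPL21P75 followed with 29830 counts against 1620, 18.4 times as many. RPL9P9 had 21504 against 1850, 11.6 times as many. RPS26P6 had 8781 against 1280, 6.86 times as many, and RPL23AP42 was at 6.81 times. All 13 had at least 68.0% of their 31-base stretches in the parent. Across the 78 members, counts relative to the parent followed the share of stretches with a Spearman rho of 0.75 and identity with a rho of 0.73. These are descriptions, since members of a family share their parent and all points share the same libraries.

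**Figure D2:**
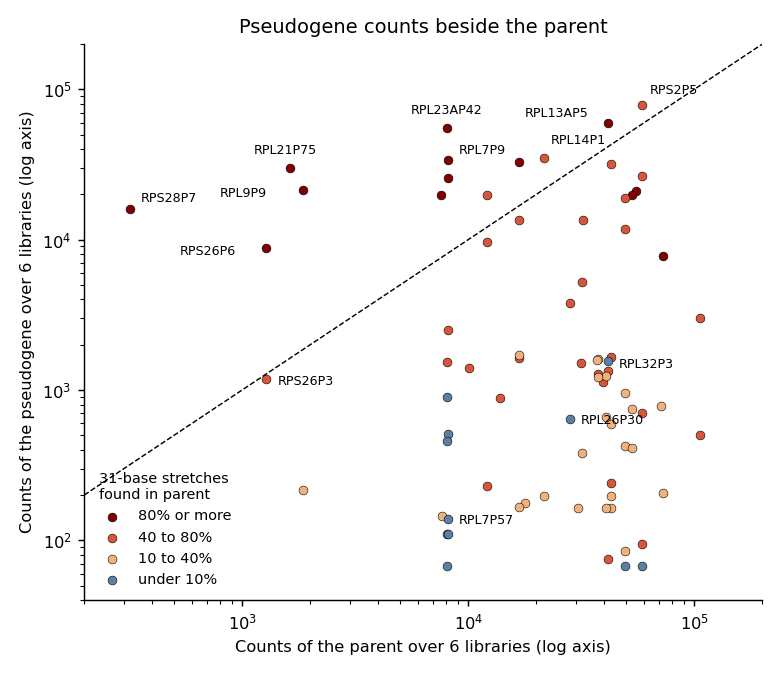
Counts of each of the 78 pseudogenes against counts of its parent, summed over the 6 libraries, on log axes. Colours give the share of 31-base stretches found in the parent and the dashed line marks equal counts; the 13 members above the line share more stretches than most below it, and the 11 members under 10% (blue) all lie below it.

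Before the conditions were compared, the libraries were checked. Total gene counts ran from 11130902 to 14138262. SOX5, the host gene of the circle, had 24906 to 33577 counts with overexpression and 380 to 453 with the control plasmid, in the direction the labels give. All 10 hepatoma markers in the list, such as AFP and ALB, averaged at least 1 CPM, while the erythroid markers HBB and HBA1 were at 0 counts. The fibroblast list had 3 of 5 genes at 1 CPM or more (highest COL1A2, 8.21 CPM) and summed to 18.4 to 22.7 CPM with overexpression and 17.9 to 21.0 CPM in the controls. The endothelial list summed to 54.4 to 55.6 CPM and 46.9 to 59.2 CPM, mostly PECAM1 (mean 54.3 CPM), with CDH5 at 0. The leukocyte list summed to 491 to 532 CPM with overexpression and 438 to 475 CPM in the controls, almost all of it LYZ (mean 473 CPM), and its part in the results was not tested. Control replicate 1 stood apart: the mitochondrial genome held 9.29% of its counts against 6.32% to 7.04% in the other libraries, and it had the fewest counts in total.

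The first question was whether the members together took a different part of the library after overexpression. They held 0.995%, 0.932% and 0.901% of counts in overexpression replicates 1, 2 and 3, and 0.673%, 0.876% and 0.832% in control replicates 1, 2 and 3. The groups did not overlap, but control replicate 1 lay far below the other controls. The means were 0.943% ± 0.0479 and 0.794% ± 0.107 (SD, n = 3 each), and an exact two-sided permutation test gave p = 0.1, the smallest this design allows. Without control replicate 1 the difference was 0.0888 percentage points, against 0.149 with it, and the exact permutation test gave p = 0.2, the smallest of 3 libraries against 2 being 0.1. In bulk libraries, a change in RNA per cell and a change in the make-up of the cells cannot be told apart.

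The parents showed the same order. They held 1.60%, 1.49% and 1.47% of counts with overexpression and 1.12%, 1.46% and 1.32% in the controls (exact two-sided permutation test, p = 0.1). Taking the mitochondrial genome out of the totals left the members at 1.01% ± 0.0555 and 0.858% ± 0.103 (SD, n = 3 each).

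**Figure D3:**
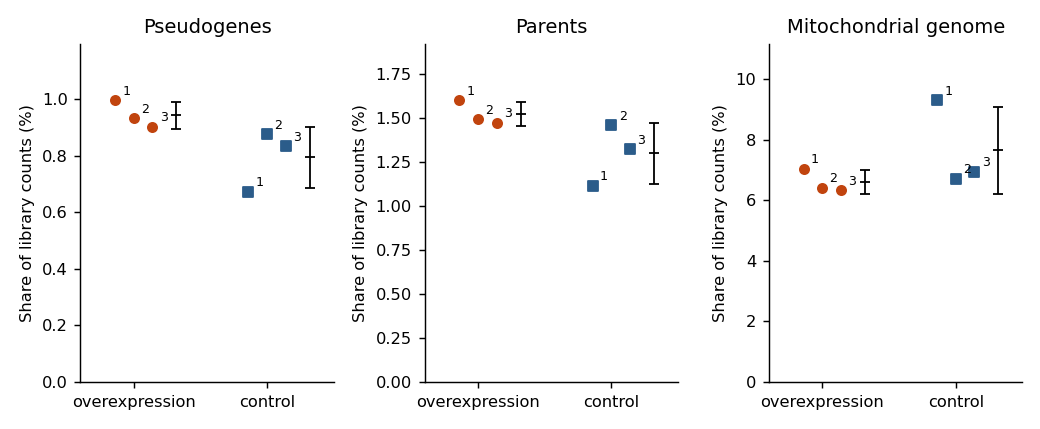
Share of library counts in percent held by the 78 pseudogenes, their 34 parents and the mitochondrial genome. Each numbered point is a library and the bars give mean ± SD (n = 3); control replicate 1 has the lowest share of pseudogenes and of parents and the highest mitochondrial share, 9.29%.

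Member by member, none passed the test. edgeR's quasi-likelihood test was run on all 15055 genes that passed the filter on low counts, with Benjamini-Hochberg adjustment over all of them. 77 members were tested, RPS2P32 being too low. 0 members were called at an adjusted p under 0.05, where 0.0399% of all genes were, and the lowest adjusted p of a member was 0.797. DESeq2 called 0 members too. At an unadjusted p under 0.05 there were 7 members in edgeR, all higher with overexpression. Of all genes tested in edgeR, 2.42% were higher and 5.50% in either direction at that level. DESeq2 gave 6 members, where 2.53% of its 27071 genes with a p were in either direction.

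The fitted values nevertheless lay to 1 side. 65 of the 77 tested members had a log2 fold change above 0, as did 50.5% of all genes, and the median was 0.20, against 0.0023 over all genes. For 19 members the lowest overexpression value exceeded the highest control value, with none the other way, where 6.40% of all genes tested were higher in this sense. The 34 parents had a median of 0.25, with 30 above 0, 15 higher without overlap and 0 called (lowest adjusted p 0.797). Of 89 listed cytosolic ribosomal protein genes 85 were tested, with a median of 0.22, 77 above 0, 31 higher without overlap, 11 at an unadjusted p under 0.05 and 0 called.

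Control replicate 1 moved these values. It held the lowest of the 6 values for 47 of the 77 members, where it did so for 26.5% of all genes. On the log2 CPM scale the median deviation of the members from their own mean was -0.31 in control replicate 1, 0.022 in control replicate 2 and -0.060 in control replicate 3. It was 0.20, 0.097 and 0.051 in overexpression replicates 1, 2 and 3. Without control replicate 1 the median log2 fold change of the members was 0.13 and that of the parents 0.13, and 2 members had an unadjusted p under 0.05, where 4.27% of all genes did. Then 20 members were higher without overlap, where 10.3% of all genes were, now with 3 libraries against 2. Other libraries moved the values too. Without overexpression replicate 1, 0 members reached an unadjusted p of 0.05, where 3.29% of all genes did, and the median was 0.15. Without control replicate 2, 20 members did, where 7.36% of all genes did, and the median was 0.32.

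The 10 most counted members all had fitted values above 0. RPL23AP42 was at 847, 784 and 814 CPM with overexpression and at 428, 729 and 708 CPM in the controls. The groups did not overlap, and control replicate 1 lay far under the rest. The fitted log2 fold change was 0.39 ± 0.18 (SE, edgeR adjusted p 0.797), and it was 0.32 for RPL23A.

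RPL7P9, a copy of the gene for the large subunit protein uL30, was at 498, 476 and 498 CPM against 329, 447 and 436 CPM. All overexpression values lay above the controls, by a small margin over control replicate 2. The fitted log2 fold change was 0.28 ± 0.12 (SE, edgeR adjusted p 0.797). RPL21P75 was at 445, 427 and 433 CPM against 273, 399 and 376 CPM, again without overlap, with a log2 fold change of 0.32 ± 0.14 (SE, edgeR adjusted p 0.797).

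RPS2P5 was at 1178, 1112 and 1020 CPM against 838, 1039 and 1045 CPM, so the groups overlapped, and its fitted log2 fold change was 0.18 ± 0.11 (SE). RPL13AP5 was at 956, 809 and 710 CPM against 814, 756 and 692 CPM, with broad overlap. RPL14P1 was at 510, 460 and 456 CPM against 417, 442 and 465 CPM, with a log2 fold change of 0.11. RPS3AP6, RPL7AP6, RPS2P46 and RPL7P1 had log2 fold changes of 0.26, 0.36, 0.21 and 0.18, and each overlapped between the groups.

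The members with the most counts relative to their parents did not share 1 pattern. RPS28P7, the copy identical to its parent, was at 258, 213 and 183 CPM with overexpression and at 234, 197 and 186 CPM in the controls. The groups overlapped widely, the fitted log2 fold change was 0.084 ± 0.14 (SE), and control replicate 1 was its highest control. RPL9P9 was at 302, 322 and 317 CPM against 183, 301 and 269 CPM, without overlap but with control replicate 2 within 2 CPM of the lowest overexpression value. RPS26P6, a copy of the small subunit gene RPS26, was at 131, 122 and 119 CPM against 93.4, 110 and 119 CPM.

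The largest fitted values belonged to members of few counts. RPL15P2 was at 8.07, 5.71 and 5.66 CPM against 3.32, 4.94 and 4.28 CPM, without overlap, with a log2 fold change of 0.63 ± 0.23 (SE, edgeR adjusted p 0.797). RPL23AP24 came next at 0.61 but averaged only 0.867 CPM. Among members of at least 1 CPM, RPL5P1, RPS2P55, RPL15P18 and RPS2P7 followed RPL15P2. They had log2 fold changes of 0.58, 0.58, 0.55 and 0.54 and standard errors of 0.24 to 0.31. Their parents had smaller values, 0.14 for RPL15, 0.19 for RPL5 and -0.022 for RPS2. RPL15 and RPL5 encode large subunit proteins, and that of RPL5 also binds 5S ribosomal RNA. RPS3AP5, RPL10AP6 and RPS13P2, named after their values were seen, were among the 7 members with an unadjusted edgeR p under 0.05. Their log2 fold changes were 0.34, 0.41 and 0.44.

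The 12 tested members below 0 all had an unadjusted p above 0.05. The lowest value, -0.34 ± 0.67 (SE), was that of RPL13AP20, which averaged 0.980 CPM and is named here after its values were seen, since those that follow are of at least 1 CPM. RPL23AP2 was at 23.4, 19.6 and 14.1 CPM with overexpression and at 27.7, 19.8 and 18.9 CPM in the controls. Its highest value was in control replicate 1, the library in which RPL23AP42 of the same family was lowest, and its fitted log2 fold change was -0.21 ± 0.21 (SE). RPL7P57, RPL23AP53, RPS20P14 and RPL26P30 had log2 fold changes of -0.27, -0.16, -0.13 and -0.11, with standard errors from 0.17 to 0.45 and overlapping groups. 2 of these 5, RPL7P57 and RPL26P30, are among the 4 members nearer to another gene than to the named parent.

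Fitted values were also set beside likeness to the parent. The median log2 fold change was 0.24 for 13 members that shared at least 80% of their stretches with the parent, 0.21 for 30 members at 40% to 80%, 0.23 for 24 members at 10% to 40% and 0.0073 for 10 tested members under 10%. In that last class values ran from -0.27 to 0.61, 5 of 10 were above 0 and 0 were higher without overlap. This class also had fewer counts, and the median CV in the controls was 25.6%, against 16.2% over all tested members, so its values are less precise. The difference between the classes was not tested.

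**Figure D4:**
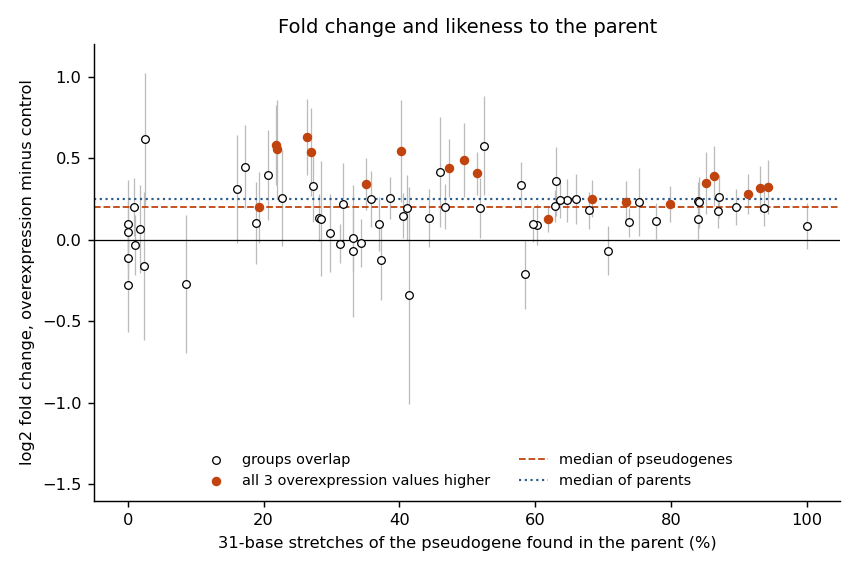
Log2 fold change of 77 tested pseudogenes, overexpression minus control, against the share of 31-base stretches found in the parent in percent. Bars are standard errors of edgeR and filled points mark the 19 members whose 3 overexpression values all lie above the 3 control values; most points lie above 0 and near the medians of pseudogenes (0.20) and parents (0.25), and those under 10% lie on both sides of 0.

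Fitted values of single members and of their parents showed little correlation. Across the 77 members, the log2 fold change of a member and that of its parent had a Pearson r of -0.095 and a Spearman rho of -0.010 (-0.11 and -0.043 over 73 without the 4 nearer to another gene), a description over points that share libraries and, within families, the parent. 56 of 77 had the same sign as the parent and 33 lay above it. The parents' values ran only from -0.14 to 0.39, with standard errors of 0.087 to 0.31. Members of few counts weighed as much as the rest. The correlation therefore cannot tell whether members moved with their parents. RPL9P9 had a log2 fold change of 0.32 and RPL9 of -0.012 ± 0.17 (SE). RPL14P1 had 0.11 and RPL14 -0.14 ± 0.089 (SE). Other pairs lay closer, such as RPL21P75 at 0.32 and RPL21 at 0.32.

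How reads were divided inside a family was examined next. Over all families the members held 38.3%, 38.4% and 37.9% of the counts of members and parents together with overexpression, and 37.6%, 37.5% and 38.6% in the controls. The groups overlapped, at 38.2% ± 0.260 and 37.9% ± 0.626 (SD, n = 3 each), and an exact two-sided permutation test gave p = 0.4. In 12 of the 34 families the members held more counts than the parent.

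The split differed far more between families than between libraries. The RPS28 family was at 96.9% to 98.8% over the 6 libraries, RPL21 at 94.3% to 95.2%, RPL7 at 88.1% to 88.9% and RPL23A at 87.3% to 88.4%. RPL23A kept 88.4% in control replicate 1, although both RPL23AP42 and RPL23A were at their lowest CPM there. At the low end RPL37A was at 0.417% to 0.839% and RPS24 at 0.929% to 1.28%.

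**Figure D5:**
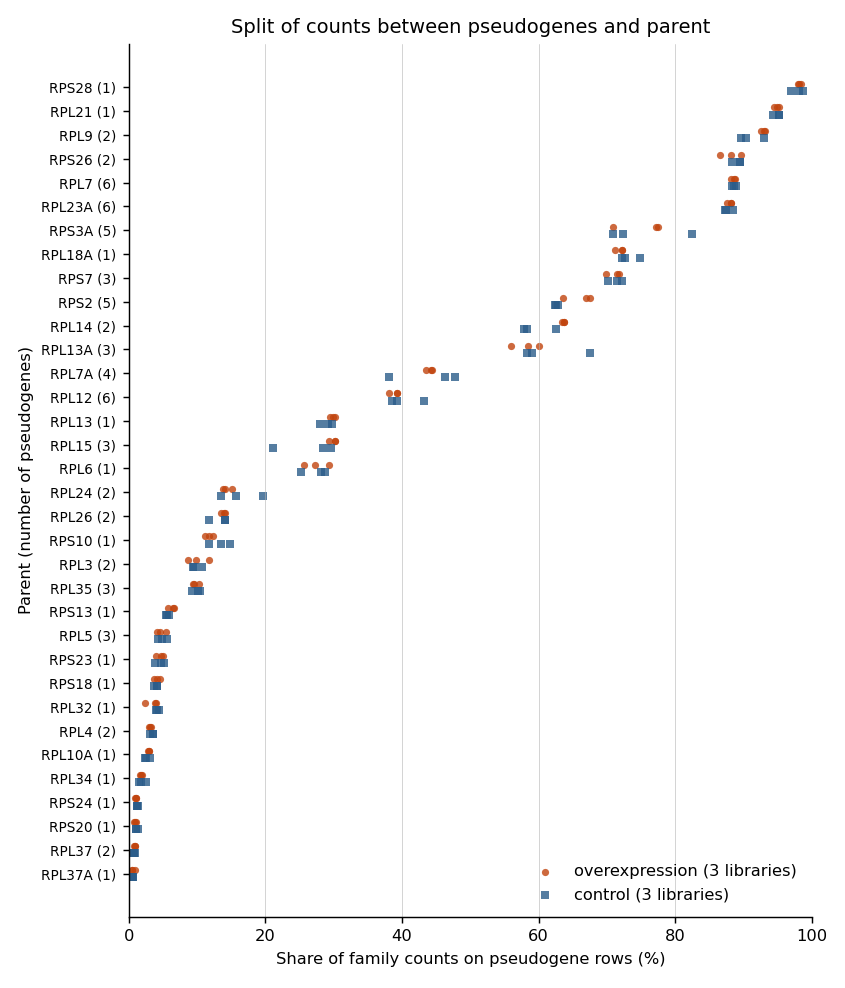
Share of family counts held by pseudogene rows, in percent, for 34 parents with the number of their pseudogenes in brackets. Each point is a library (circles overexpression, squares control, 3 each); families differ from below 1% to 98%, while most libraries of a family lie close together, with wider scatter for RPS3A, RPL13A, RPL7A and RPL15.

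Some families scattered more than counting error allows. With Wilson 95% intervals, which cover counting error only, the shares of at least 2 libraries of the same group did not overlap in 19 of 34 families. In the RPS3A family, whose parent encodes the small subunit protein eS1, members held 82.5% (81.7% to 83.3%) in control replicate 3 and 70.9% (70.1% to 71.7%) in control replicate 2. In the RPL13A family they held 67.5% (66.7% to 68.3%) in control replicate 1 and 58.3% (57.5% to 59.1%) in control replicate 2. In RPL7A and RPL15 control replicate 1 was the lowest library, at 38.1% and 21.0%, so this library did not shift the split in 1 direction.

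In 3 of 34 families the shares did not overlap between the groups. Of all ways to divide the libraries 3 against 3, a share of 0.1 sets the groups apart. Some of 34 families would therefore be apart without any difference. RPS2 members held 66.9%, 63.6% and 67.6% with overexpression and 62.5%, 62.8% and 62.4% in the controls. RPL14 members held 63.7%, 63.7% and 63.4% against 57.8%, 58.4% and 62.5%, a difference of 4.03 percentage points and the largest of the 34. RPS24P8, the member of the RPS24 family, held 1.10%, 0.996% and 0.929% against 1.28%, 1.13% and 1.15%. Each had an exact two-sided permutation p of 0.1 (0.85 after Benjamini-Hochberg adjustment over 34 families). With 3 libraries against 3 no p can fall below 0.1, so this test could call no family whatever the shares, and whether the split differed in these 3 is not settled by it.

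Summing each parent with its members gives values free of the split, though not of how reads with several matches were counted. In such a table, 0 of 34 families were called by edgeR's quasi-likelihood test (lowest adjusted p 0.80), where 0.0401% of its 14978 rows were, and DESeq2 called 0 too. 5 families had an unadjusted p under 0.05, as did 5.45% of the rows. The summed RPL23A family was at a log2 fold change of 0.36 ± 0.18 (SE), RPL7A at 0.37 ± 0.15 and RPL21 at 0.32 ± 0.14. RPS2 was at 0.12 ± 0.11 and RPL14 at 0.015 ± 0.082.

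Pseudogenes of other abundant genes, taken with the same minimum, served as a comparison. RPSA, RPLP0, RPLP1 and RPLP2 are ribosomal genes outside the naming pattern. Of their pseudogenes, 8 reached the minimum, all of them named for RPSA except RPLP0P6. These 8 had a median log2 fold change of 0.071 with 7 of 8 above 0. 58 tested pseudogenes of genes such as EEF1A1, PPIA and HNRNPA1 had a median of 0.064 with 34 above 0. Of these 58, 5 (8.62%) were higher without overlap, near the 6.40% of all genes tested, and 1 was lower. In control replicate 1 the median deviation was -0.41 for the 8 and -0.099 for the 58, against -0.31 for the 77 tested members. These groups were compared by description only.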

How the data were processed

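RNA sequencing libraries were prepared from total RNA by standard Illumina protocols. The authors deposited 1 table with whole-number read counts per gene, not normalized, and FPKM values per gene and library. The submitters' processing notes name TopHat2 2.0.9 and hg38, while the counting tool, the annotation release, the handling of strand and of reads with several matches are not given in the sources used here. Deposited FPKM values were used only in an alternative, with limma 3.58.1 on log2(FPKM + 1). Groups and replicate numbers came from the sample titles.

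Deposited counts were tested with edgeR 4.0.16 in R 4.3.3: filterByExpr (minimum count 10), TMM and the two-sided quasi-likelihood test (glmQLFit, glmQLFTest) with no term besides group, on 15055 genes, with Benjamini-Hochberg adjustment. The biological coefficient of variation was 16.1%, and CPM used TMM library sizes. Shares of counts were compared with exact permutation tests. The code was tested on simulated counts. DESeq2 1.42.0 was an alternative.

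Sequences came from GENCODE 29. The parent transcript was a coding principal transcript, chosen by best support level and then by shortest length. Pseudogenes were aligned to it locally with Biopython (match 2, mismatch -3, gap opening -5, gap extension -2). Total counts were 11130902 to 14138262 per library, and intervals cover counting error only.

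The members and lists were chosen with earlier results of these data known. Named genes were SOX5, the 10 members of highest mean CPM, the 5 most positive and 5 most negative log2 fold changes among tested members of at least 1 CPM, members called, the 5 with most counts relative to the parent, those next to the minimum of 60 counts (3 of them tied inside it), their parents and the 5 parents with most member counts. The fifth most counted member, RPL7P9, is not shown by sequence.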

Additional observations from a re-analysis of the deposited data

How the results depend on the processing

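0 members and 0 summed families were called under every alternative that could be fitted. Limma on FPKM was fitted to single genes and not to summed families. The number of members at an unadjusted p under 0.05, 7 as reported where 5.50% of all genes were, was 14 (4.83% of all genes) with no filter beyond 1 count in total, 12 (6.03%) with limma on log2(FPKM + 1) and 4 (4.39%) under a replicate block. Leaving out 1 library gave 0 to 20: 0 (3.29%) without overexpression replicate 1, 3 (4.38%) and 4 (4.33%) without overexpression replicates 2 and 3, 2 (4.27%) without control replicate 1, 20 (7.36%) when control replicate 2 was absent, and 6 (6.97%) when control replicate 3 was. The cause was not tested beyond the fewer libraries. The median log2 fold change of the members stayed above 0 in all of these fits, at 0.13 without control replicate 1 and up to 0.32 when control replicate 2 was absent, and that of the parents from 0.13 to 0.32. Without the members under 10% shared stretches, chosen after the data were seen, the median was 0.23.

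The members' share of library counts was higher with overexpression under all alternatives, by 0.0888 to 0.190 percentage points when 1 library was left out. The share within families differed by 0.327 percentage points, from 0.124 to 0.687 when 1 library was left out, and turned to -0.226 as a median over families (exact permutation p = 0.8). Without the 4 members nearer to another gene, chosen after the data were seen, it was 0.337. Among 41 named genes, 16 of 525 values under alternatives changed sign. The upper-quartile value of RPL9 was 0.0053. With limma on FPKM RPL9 was at 0.030 and RPS28 at 0.0087, and with a replicate block they were at 0.016 and 0.0032. When 1 library was left out, log2 fold changes ran from -0.55 to 0.25 for RPL23AP53, -0.22 to 0.00098 for RPS20P14, -0.054 to 0.20 for RPS28P7, -0.48 to 0.20 for RPL12P38, -0.15 to 0.21 for RPL9, -0.12 to 0.080 for RPS2 and -0.22 to 0.32 for RPS28, so their directions are not settled.

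No pairing of the libraries by replicate number was seen, though weak correlations cannot exclude one. Deviations of same-numbered libraries from the group means had correlations of -0.036, -0.023 and -0.031 across genes. Differently numbered libraries had -0.0054 to 0.034. With the replicate block the median of the members was 0.22.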
